A study of Homo sapiens with 8 samples.

Results

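The ATF4 and CHOP stress response was described through 10 of its genes across 8 Affymetrix PrimeView arrays of KBM7 cells, a human chronic myeloid leukaemia line with a near-haploid genome. These were DDIT3, TRIB3, SLC7A11, ATF4, ASNS, CHAC1, PSAT1, SESN2, DDIT4 and PHGDH, which are 10 of the 11529 genes compared. The 10 were chosen with earlier results of these data known, so a share of all genes set beside them is description only. They were found by taking every probe set whose platform annotation names one of them, which gave 26 probe sets with that gene alone and 1 that also names another gene, of 49395 on the array. The groups were unstimulated gene-trap cells labelled JAK2 mutant and the same cells with IFN-gamma (100 ng/ml for 6 hours), unstimulated gene-trap cells labelled TNFRSF1A mutant and the same cells with TNF-alpha (10 ng/ml for 6 hours), and wild-type (WT) cells with IFN-gamma, with TNF-alpha, or unstimulated. Each condition had 1 array, except unstimulated WT, which had 2: the labels pair replicate 1 with the IFN-gamma stimulation and replicate 2 with TNF-alpha. All groups are derivatives of the same line, the labels give no number of clones behind a mutant and no rescue, and nothing in them says whether the cultures were separate. A difference between 2 arrays is therefore described without a test, apart from 1 model check that borrows its spread from the WT pair, and genotype, clone and culture cannot be told apart.

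ATF4 is the transcription factor of the integrated stress response. Kinases that sense unfolded proteins, missing amino acids, viral RNA or haem shortage phosphorylate the translation factor eIF2, which lowers protein synthesis in general and favours translation of ATF4 mRNA. ATF4 with its C/EBP partners then raises genes of amino acid uptake, serine and asparagine synthesis and glutathione supply, and also CHOP (gene symbol DDIT3), a factor tied to death of cells under lasting stress. Leukaemia cells use this programme when amino acids run short.

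ATF4 and CHOP bind with C/EBP proteins to a composite element with the core TGATGNAA. This core was searched on both strands from 250 bases before to 50 bases after each RefSeq gene start (GRCh38.p14), where 9 of the 10 genes had an entry. It was found in 2 of these 9, ASNS and CHAC1, and in 4.46% of the 27305 genes of that table. The 250 bases before the most upstream start are shown for both, since they hold the core (in capitals), and for DDIT3 and TRIB3, the 2 genes with the largest differences between the unstimulated JAK2 mutant and WT replicate 1, in which these letters were not found. The stretches are chr7:97872409-97872658 on the minus strand for ASNS, chr15:40953221-40953470 on the plus strand for CHAC1, chr12:57520518-57520767 on the minus strand for DDIT3 and chr20:381045-381294 on the plus strand for TRIB3, each written 5′ to 3′ along its gene.
ASNS: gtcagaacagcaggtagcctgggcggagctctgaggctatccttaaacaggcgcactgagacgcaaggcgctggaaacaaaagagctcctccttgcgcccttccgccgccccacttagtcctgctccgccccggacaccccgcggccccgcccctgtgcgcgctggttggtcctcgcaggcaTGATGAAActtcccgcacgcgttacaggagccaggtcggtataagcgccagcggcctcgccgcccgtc
CHAC1: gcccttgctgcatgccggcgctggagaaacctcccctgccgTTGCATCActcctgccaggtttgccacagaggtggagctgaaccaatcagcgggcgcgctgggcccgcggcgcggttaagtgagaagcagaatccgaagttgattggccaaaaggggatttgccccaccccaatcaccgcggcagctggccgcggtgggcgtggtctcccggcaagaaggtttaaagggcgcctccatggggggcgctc
DDIT3: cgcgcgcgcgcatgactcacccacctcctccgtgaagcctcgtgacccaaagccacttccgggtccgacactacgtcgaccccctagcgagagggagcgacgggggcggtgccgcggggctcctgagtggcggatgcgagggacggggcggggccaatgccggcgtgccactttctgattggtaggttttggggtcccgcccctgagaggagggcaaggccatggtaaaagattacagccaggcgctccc
TRIB3: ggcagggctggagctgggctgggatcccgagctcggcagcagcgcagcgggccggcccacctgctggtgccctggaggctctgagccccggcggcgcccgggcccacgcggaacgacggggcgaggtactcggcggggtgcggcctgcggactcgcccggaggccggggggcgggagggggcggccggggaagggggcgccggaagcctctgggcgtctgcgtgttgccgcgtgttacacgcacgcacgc
In ASNS the match TGATGAAA begins at position -68 from the start, and in CHAC1 it lies on the opposite strand, read as TTGCATCA, and begins at position -209. The core of the antioxidant response element, TGACNNNGC, was found in 1 of the 9 genes, TRIB3, outside the stretch shown, and in 16.1% of the table. The ER stress response element, searched as exactly CCAAT and CCACG 9 bases apart, was found in none of the 9, and in 0.0916% of the table. The DDIT3 stretch shown holds CCAAT and CCACT 9 bases apart, which differs in its last letter and was not counted. A match is a string of letters and was not tested as a binding site.

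On the arrays, the check of the labels came first. The JAK2 probe set read 5.08 and 5.32 (log2 intensity) in the JAK2 mutant without and with IFN-gamma, both within the range of the array's background probe sets, against 6.28 in WT replicate 1 and 6.81 in IFN-gamma-treated WT cells. TNFRSF1A read 6.56 and 6.55 in the TNFRSF1A mutant without and with TNF-alpha, against 9.23 in WT with TNF-alpha and 9.36 in WT replicate 2. Array medians were alike, from 63.9 to 66.9 intensity units, which RMA normalization brings about, so this is no check of array quality. Precision is limited by how few arrays there were. Of 5 myeloid markers measured, ANPEP, KIT and CD34 were above background on all 8 arrays and MPO on 7, and SPI1 was on none. Of the markers of other cell types, CD3D, CD79A and HBB were above background on all 8 arrays and KRT8 on 6, while CD3E, CD3G, CD2, MS4A1, EPCAM, KRT19 and all 4 fibroblast collagen and decorin markers were on none. The ratio of 3′ to 5′ actin probe sets, a sign of RNA quality, was 5.74 and 6.47 in the JAK2 mutant without and with IFN-gamma, 4.51 and 5.53 in the TNFRSF1A mutant without and with TNF-alpha, 4.81 in both stimulated WT samples, and 4.41 and 3.27 in unstimulated WT replicates 1 and 2. It was highest in the JAK2 mutant arrays. The TNFRSF1A mutant with TNF-alpha had the next highest actin ratio and had levels of these genes near the top of the 8 arrays. The same ratio for GAPDH was 1.271 and 1.246 in the JAK2 mutant without and with IFN-gamma. It was 1.208 and 1.195 in WT replicate 1 and WT with IFN-gamma, and from 1.09 to 1.15 in the TNF-alpha experiment. This is the reverse of the order of array sets found below in 9 of the 10 genes. The part of either ratio in the results was not tested.

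Unstimulated JAK2 mutant cells had less mRNA of the stress genes than the WT control of their experiment. All 10 genes were lower, against 44.9% of all genes, and DDIT3, TRIB3 and SLC7A11 were lower by at least 2-fold. The median difference was -0.66 on the log2 scale, against 0.03 over all 11529 genes. Being lower by at least 2-fold is what is called a fall here, and 3 of the 10 genes fell, against 1.91% of all genes. For scale, the SD over genes between the 2 unstimulated WT arrays was 0.38, which holds array noise and the difference between the experiments together. The differences of PHGDH (-0.13), ATF4 (-0.25), CHAC1 (-0.29) and PSAT1 (-0.36) lay within that spread. In bulk RNA, fewer expressing cells and less RNA per cell cannot be told apart.

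**Figure D1:**
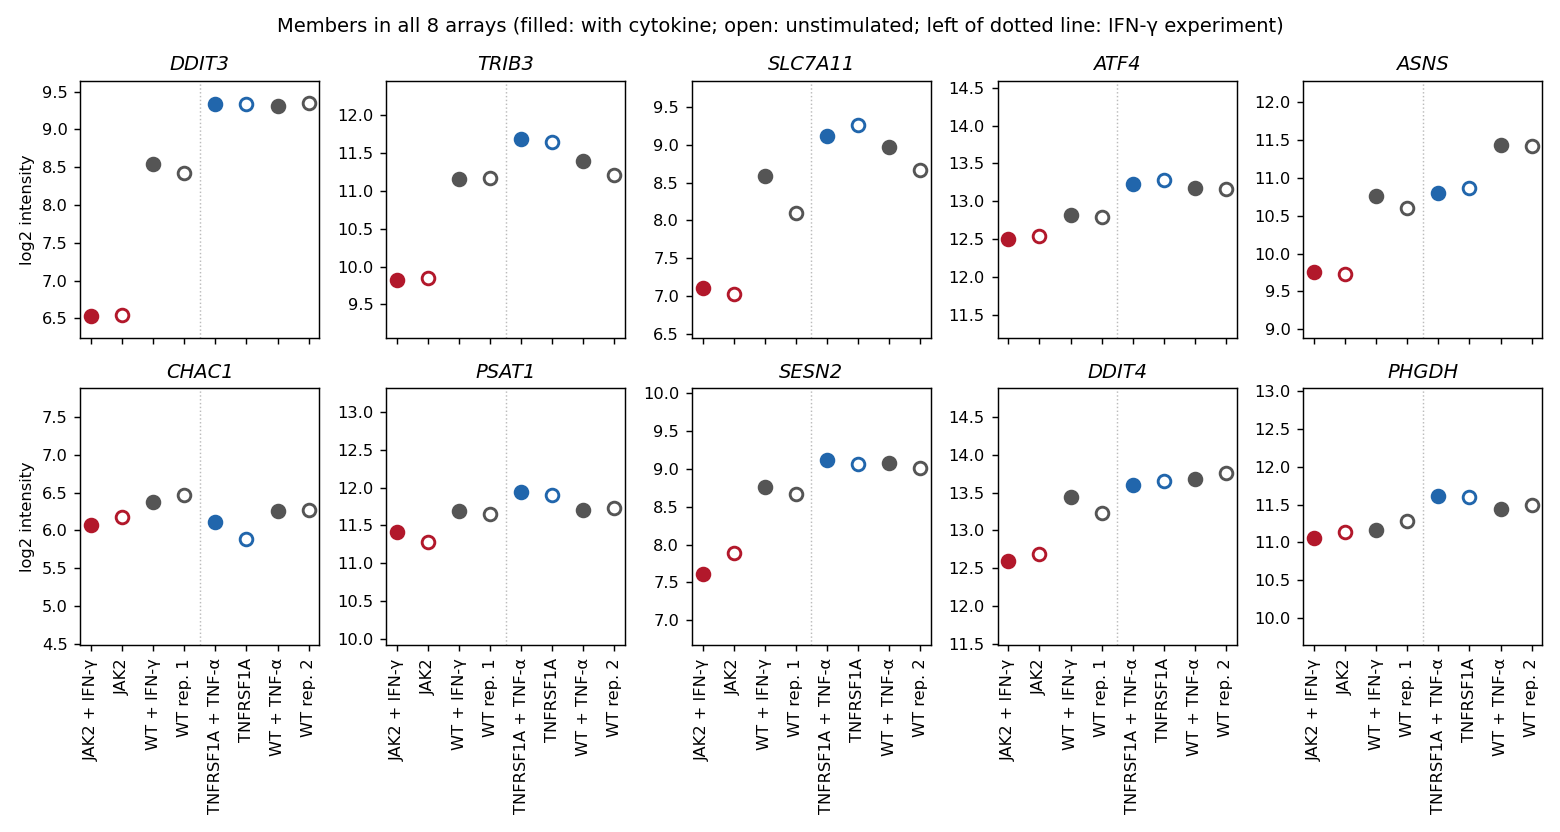
Log2 intensity of the 10 genes on each of the 8 arrays, 1 point per array, filled where a cytokine was added, with JAK2 mutant arrays in red, TNFRSF1A mutant arrays in blue and WT arrays in grey. DDIT3 reads 6.54 on both JAK2 mutant arrays and 8.42 or more on the other 6, while CHAC1 lies between 5.89 and 6.47 on all arrays.

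DDIT3, which encodes CHOP, showed the largest difference of the 10. Its log2 intensity was 6.54 in the JAK2 mutant, 6.54 in the JAK2 mutant with IFN-gamma, 9.34 in the TNFRSF1A mutant and 9.34 in the TNFRSF1A mutant with TNF-alpha, against 8.54 in IFN-gamma-treated WT cells, 9.32 in TNF-alpha-treated WT cells, and 8.42 and 9.34 in unstimulated WT replicates 1 and 2. The 2 JAK2 mutant arrays were lowest and did not overlap the other 6, the WT arrays of the IFN-gamma experiment lay between, and the 4 arrays of the TNF-alpha experiment were within 0.03 of each other. The second DDIT3 probe set gave the same order of these 3 sets of arrays but spread the TNF-alpha experiment more, with 9.07 and 9.17 in the TNFRSF1A mutant without and with TNF-alpha, against 9.54 in WT replicate 2 and 9.21 in WT with TNF-alpha. The JAK2 mutant minus WT replicate 1 difference was -1.88 (93.0 against 342 intensity units), and -1.78 with the second DDIT3 probe set. Against WT replicate 2 it was -2.80, so the choice of WT control moved the size and kept the direction.

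TRIB3 encodes a pseudokinase that ATF4 and CHOP induce and that binds AKT and ATF4 itself. Its log2 intensity was 9.85 and 9.82 in the JAK2 mutant without and with IFN-gamma and 11.64 and 11.69 in the TNFRSF1A mutant without and with TNF-alpha, against 11.17 and 11.16 in WT replicate 1 and WT with IFN-gamma and 11.21 and 11.39 in WT replicate 2 and WT with TNF-alpha. Only the JAK2 mutant arrays stood apart by more than 1 log2 unit. In the JAK2 mutant TRIB3 differed by -1.32 from WT replicate 1 and by -1.36 from WT replicate 2. It differed by 0.04 between the 2 WT controls. Its second probe set gave a smaller difference of -0.66.

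SLC7A11 encodes the cystine and glutamate exchanger xCT, which supplies cysteine for glutathione. Its log2 intensity was 7.03 and 7.10 in the JAK2 mutant without and with IFN-gamma and 9.26 and 9.11 in the TNFRSF1A mutant without and with TNF-alpha, against 8.10 and 8.58 in WT replicate 1 and WT with IFN-gamma and 8.67 and 8.98 in WT replicate 2 and WT with TNF-alpha. The JAK2 mutant arrays were lowest and the TNFRSF1A mutant arrays highest. Its 3 probe sets disagreed in size: against WT replicate 1 the JAK2 mutant differed by -1.07 with the brightest and by -0.15 with another, and with the dimmest it read 5.04, within the background range, against 6.44 in WT replicate 1, which bounds that difference at 0.58 or more below WT.

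ASNS, asparagine synthetase, is a standard readout of ATF4 activity. Its log2 intensity was 9.74 and 9.76 in the JAK2 mutant without and with IFN-gamma and 10.86 and 10.80 in the TNFRSF1A mutant without and with TNF-alpha, against 10.60 and 10.76 in WT replicate 1 and WT with IFN-gamma and 11.43 and 11.43 in WT replicate 2 and WT with TNF-alpha. Both TNFRSF1A mutant arrays lay below both WT arrays of the same experiment, and ASNS was the only one of the 10 genes where that gap exceeded the WT spread of 0.38. The JAK2 mutant differed from WT replicate 1 by -0.87, short of 2-fold, and its 4 probe sets ran from -0.88 to -0.75.

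SESN2 and DDIT4 (also called REDD1) restrain the growth kinase complex mTORC1, SESN2 when leucine is scarce. SESN2 read 7.89 and 7.61 in the JAK2 mutant without and with IFN-gamma and 9.07 and 9.12 in the TNFRSF1A mutant without and with TNF-alpha, against 8.67 and 8.76 in WT replicate 1 and WT with IFN-gamma and 9.01 and 9.08 in WT replicate 2 and WT with TNF-alpha, on the log2 scale. DDIT4 read 12.69 and 12.59 in the JAK2 mutant without and with IFN-gamma and 13.65 and 13.61 in the TNFRSF1A mutant without and with TNF-alpha, against 13.23 and 13.45 in WT replicate 1 and WT with IFN-gamma and 13.76 and 13.68 in WT replicate 2 and WT with TNF-alpha. In both genes the JAK2 mutant arrays were lowest and did not overlap the rest, and the WT arrays of the IFN-gamma experiment came next. The JAK2 mutant minus WT replicate 1 difference was -0.78 for SESN2 and -0.55 for DDIT4, both short of 2-fold and larger than the WT spread.

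ATF4 and the serine synthesis enzymes differed less. ATF4 itself is controlled mainly at translation, so its mRNA need not follow its targets. It read 12.54 and 12.50 in the JAK2 mutant without and with IFN-gamma and 13.28 and 13.23 in the TNFRSF1A mutant without and with TNF-alpha, against 12.79 and 12.82 in WT replicate 1 and WT with IFN-gamma and 13.16 and 13.18 in WT replicate 2 and WT with TNF-alpha. The JAK2 mutant differed from WT replicate 1 by -0.25, within the WT spread of 0.38, and ATF4 has 1 probe set, of a kind that may cross-hybridise. PSAT1, the aminotransferase of serine synthesis, ran from 11.28 to 11.94 over the 8 arrays and differed by -0.36, with 8 probe sets from -0.48 to -0.29. PHGDH, which catalyses the first step of that pathway, ran from 11.06 to 11.62 and differed by -0.13, and the probe set that names PHGDH together with MZT2B by -0.05.

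CHAC1, an enzyme that breaks down glutathione, was dim on all 8 arrays, between 5.89 and 6.47, and on the array of the unstimulated TNFRSF1A mutant it lay within the background range. Its second probe set reached at most 5.44 and lay below background on every array. All 10 genes passed the minimum level of 6 for the highest array, CHAC1 by the least. It was the gene of the 10 whose 2 JAK2 mutant arrays were not the lowest. Its difference between the JAK2 mutant and WT replicate 1 was -0.29.

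**Figure D2:**
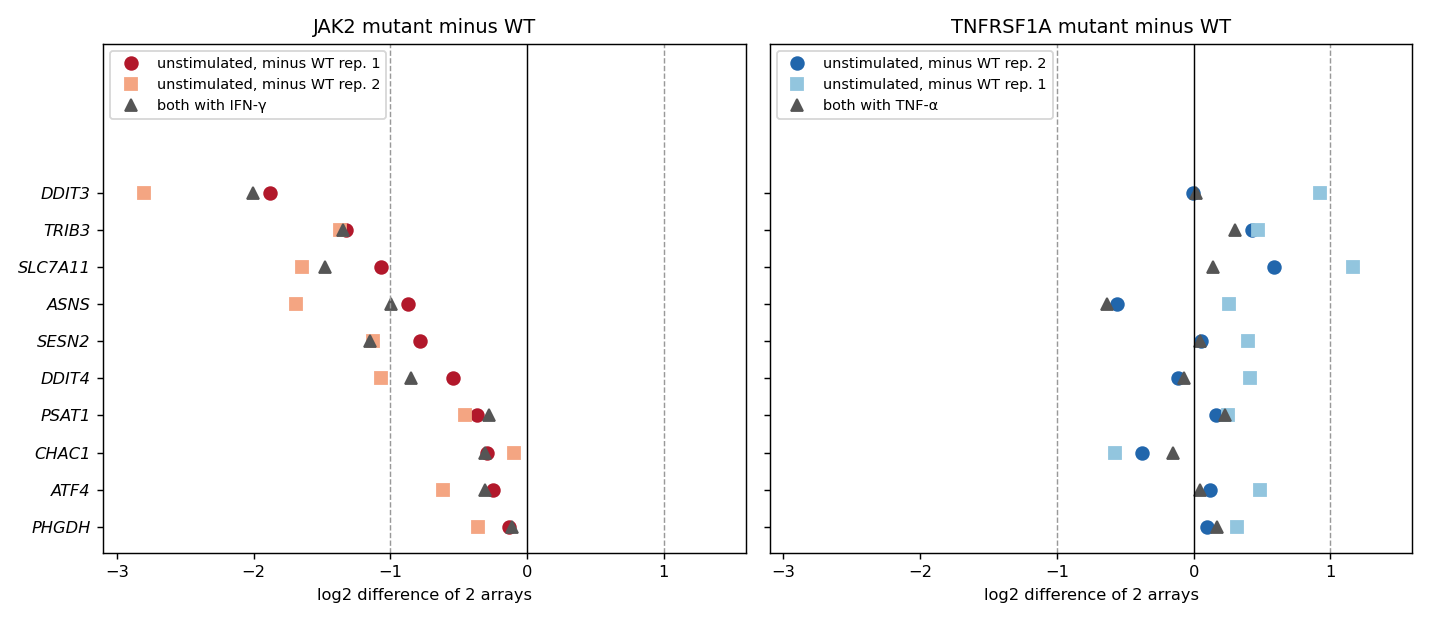
Log2 difference of each of the 10 genes for the JAK2 mutant minus WT replicate 1 and for the TNFRSF1A mutant minus WT replicate 2, unstimulated (circles), for the same mutants minus the other WT control (squares) and for the stimulated pairs (triangles), with dashed lines at 2-fold. Circles left of the line at -1 mark a fall, which DDIT3, TRIB3 and SLC7A11 did in the unstimulated JAK2 mutant at -1.88, -1.32 and -1.07.

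The IFN-gamma pair gave the same comparison on 2 other arrays. With IFN-gamma on both sides, all 10 genes were lower in the JAK2 mutant, against 45.2% of all genes, with a median of -0.92 against 0.03 over all genes. DDIT3 (-2.00), SLC7A11 (-1.48), TRIB3 (-1.35) and SESN2 (-1.15) fell, 4 of 10 against 2.67% of all genes, and ASNS was next at -0.99. The arrays differ from those of the unstimulated comparison but share its cell lines and experiment.

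The JAK2 mutant was also set against both unstimulated WT arrays at once. DDIT3, TRIB3 and SLC7A11 were at least 2-fold lower than each, 3 of 10 genes against 1.51% of all genes. Against WT replicate 2 alone 6 of the 10 fell, against 3.65% of all genes, with a median of -1.10 against 0.05 over all genes. The TNFRSF1A mutant exceeded the JAK2 mutant, both unstimulated, by a median of 1.04, against -0.02 over all genes, and 5 of the 10 genes were at least 2-fold higher, against 3.24% of all genes.

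As a check with a model, limma was fitted to all 11529 genes over the 7 conditions, where the 2 WT arrays alone give residual spread. For the JAK2 mutant against the mean of the 2 unstimulated WT arrays, 0 of the 10 genes had an adjusted p under 0.05, against 0.165% of all genes. The unadjusted p was under 0.05 for 6 of the 10, against 6.25% of all genes. In the IFN-gamma pair these counts were 0, against 0.182%, and 4, against 4.63%. The smallest adjusted p among the 10 in the unstimulated comparison was 0.205, for TRIB3, and the lone arrays are assumed to vary as the WT pair did.

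The unstimulated TNFRSF1A mutant gave the contrast. None of the 10 genes passed 2-fold against WT replicate 2, against 0.98% of all genes, and their median was 0.07 against 0.04 over all genes. SLC7A11 (0.59) and TRIB3 (0.43) were the largest positive differences and ASNS (-0.56) the largest negative, with its 4 probe sets from -0.74 to -0.48. With TNF-alpha on both sides none passed either, against 1.22% of all genes, and the median was 0.05. ASNS was again the most negative at -0.63, and TRIB3 the most positive at 0.30. DDIT3 differed by -0.00 and 0.02 in these comparisons, but its second probe set gave -0.47 in the unstimulated one, beyond the WT spread. Against WT replicate 1 instead, the median was 0.41 and SLC7A11 passed 2-fold at 1.16, against 0.841% of all genes.

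The WT control itself was not constant. WT replicate 2 exceeded WT replicate 1 in 9 of the 10 genes, CHAC1 excepted, against 44.2% of all genes, with a median of 0.36 against -0.04 over all genes. No gene passed 2-fold with its brightest probe set, against 0.954% of all genes, although DDIT3 at 0.93 and ASNS at 0.82 came near, and the second DDIT3 probe set differed by 1.27. The 9 genes other than CHAC1 were thus lowest in the JAK2 mutant, intermediate in WT replicate 1 and higher in WT replicate 2, and a JAK2 mutant value against WT depends on which control is used.

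The order of the arrays was examined after the values had been seen. Both JAK2 mutant arrays were below the other 6 in 9 of the 10 genes, against 18.3% of all genes. The 4 arrays of the TNF-alpha experiment were above both WT arrays of the IFN-gamma experiment in 9 of the 10, against 23.8%. Both orders held in 9 of the 10 genes, against 8.6% of all genes, the exception each time being CHAC1. An order can rest on a small gap. In these 9 genes the first gap ran from 0.02 for PHGDH to 1.88 for DDIT3. The second ran from 0.02 for PSAT1 to 0.78 for DDIT3, with TRIB3 and ASNS at 0.04 each. Averaged over the 10 genes after centring each on its own mean, the JAK2 mutant lay at -0.77 and -0.81 without and with IFN-gamma and the TNFRSF1A mutant at 0.39 and 0.40 without and with TNF-alpha, against -0.02 and 0.07 in WT replicate 1 and WT with IFN-gamma and 0.35 and 0.39 in WT replicate 2 and WT with TNF-alpha.

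Of the 26 single-gene probe sets, 25 reached the minimum level on some array, and the same was asked of them one by one. All 25 were lower in the JAK2 mutant than in WT replicate 1, against 45.1% of the 24766 single-gene probe sets at that level. With values in the background range raised to its upper end, 4 of the 25 fell, 2 of DDIT3 and 1 each of TRIB3 and SLC7A11, against 1.13% of those probe sets. In the IFN-gamma pair all 25 were lower, against 42.9%, and 7 fell, against 1.76%. When the mean of a gene's probe sets stood for it, only DDIT3 of the 9 genes still above the minimum level fell in the JAK2 mutant against WT replicate 1, against 1.41% of all genes, at -1.83, with TRIB3 at -0.99 and SLC7A11 at -0.88.

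**Figure D3:**
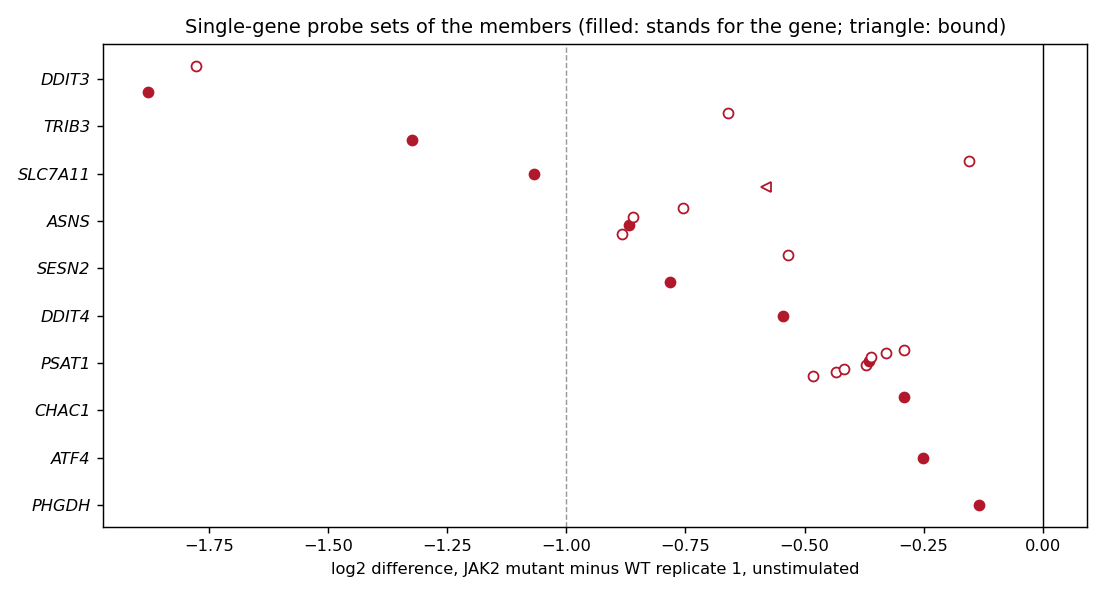
Log2 difference of each of the 25 single-gene probe sets that reached the minimum level, grouped by gene, for the JAK2 mutant minus WT replicate 1, filled for the probe set that stands for the gene, with a dashed line at 2-fold and a triangle for the 1 difference known only as a bound, since the JAK2 mutant value lay in the background range. The SLC7A11 probe sets above background lie at -1.07 and -0.15 and its bound at -0.58, while the 4 of ASNS lie between -0.88 and -0.75.

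The wider programme was described from 11 other lists of genes, chosen with earlier results of these data known. Together, the lists of amino acid transport, of serine and one-carbon enzymes and of aminoacyl-tRNA synthetases held 28 compared genes besides the 10. Their median in the JAK2 mutant against WT replicate 1 was -0.03, with 0 genes that fell. The extremes were SLC3A2, the heavy chain that carries xCT and other transporters to the membrane, at -0.56 (-1.03 against WT replicate 2), and SLC7A5, a leucine transporter, at -0.45. PYCR1 and ALDH18A1, enzymes of proline synthesis, were at 0.20 and 0.17. WARS1 and AARS1, the tryptophan and alanine tRNA synthetases, were at -0.34 and -0.32, and both JAK2 mutant arrays were lowest in 7 of the 28 genes, beside the 18.3% of all genes given above. WARS1 is induced by IFN-gamma in many cells, its response in WT was 2.16, and its difference in the IFN-gamma pair was -2.35.

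The list of eIF2 kinases and translation control had a median of 0.17 over 13 genes with 0 called, the largest being EIF2S1, the alpha subunit of eIF2, at 0.46 and EIF2B4 at 0.40. Partner transcription factors had a median of -0.21 over 11 genes. ATF3, a stress factor that ATF4 induces, was at -0.75 and CEBPB, a C/EBP partner, at -0.75, neither called, and ATF3 was picked after its value was seen. CEBPA, the granulocyte factor, differed between the WT controls by -0.83 (replicate 2 minus replicate 1), so its values depend on the control. The TNFRSF1A mutant differed by 1.01 from WT replicate 2 and by 0.18 from WT replicate 1 in CEBPA, and the JAK2 mutant by 0.69 from WT replicate 1 and by 1.52 from WT replicate 2. The list of CHOP targets and secreted or death-linked ATF4 targets had a median of -0.25 over 12 genes. Of these 1 fell, GDF15, a secreted stress cytokine. GDF15 read 5.83 in the JAK2 mutant, within the background range, against 6.96 in WT replicate 1, so it was at least 2.14-fold lower, and against WT replicate 2 the bound was 0.46 on the log2 scale. In the IFN-gamma pair GDF15 differed by -0.32. Against WT replicate 2 all 12 genes of that list were lower, against 44.5% of all genes, with a median of -0.77. WT replicate 2 itself exceeded WT replicate 1 in 11 of the 12, against 44.2% of all genes, with a median of 0.45. In the IFN-gamma pair 7 of the 12 were lower, against 45.2% of all genes, and 5 higher. Their median there was -0.05, and 2 fell, against 2.67% of all genes.

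The IRE1 and ATF6 arms of the unfolded protein response, with 18 genes, had a median of -0.17 and 0 called, and HERPUD1 and DNAJB9, of protein folding and degradation in the ER, were the lowest at -0.79 each. NRF2 targets, with 9 genes, had a median of -0.13 and 0 called, PIR at -0.40 and OSGIN1 at -0.39. Hypoxia-inducible genes, with 9, had a median of -0.28, and ADM, a vasodilator peptide, fell by 1.16 on the log2 scale. This list differed between the WT controls too, with a median of 0.95 for WT replicate 2 minus WT replicate 1, in which NDRG1 (1.89), ADM (1.54) and VEGFA (1.09) passed, NDRG1 and VEGFA being named after their values were seen. The p53 targets, with 8, had a median of -0.12, and TP53INP1 fell by 1.17. The 8 housekeeping genes had a median of 0.03. Both JAK2 mutant arrays were also lowest in 8 of the 11 partner factors and 10 of the 18 IRE1 and ATF6 genes, against 18.3% of all genes. That order held in 7 of the 9 hypoxia-inducible genes, 5 of the 12 genes of the CHOP and ATF4 target list and 4 of the 8 p53 targets. It held in 3 of the 13 genes of the eIF2 list, 2 of the 9 NRF2 targets and 1 of the 8 housekeeping genes. The order was thus not particular to the 10 stress genes.

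**Figure D4:**
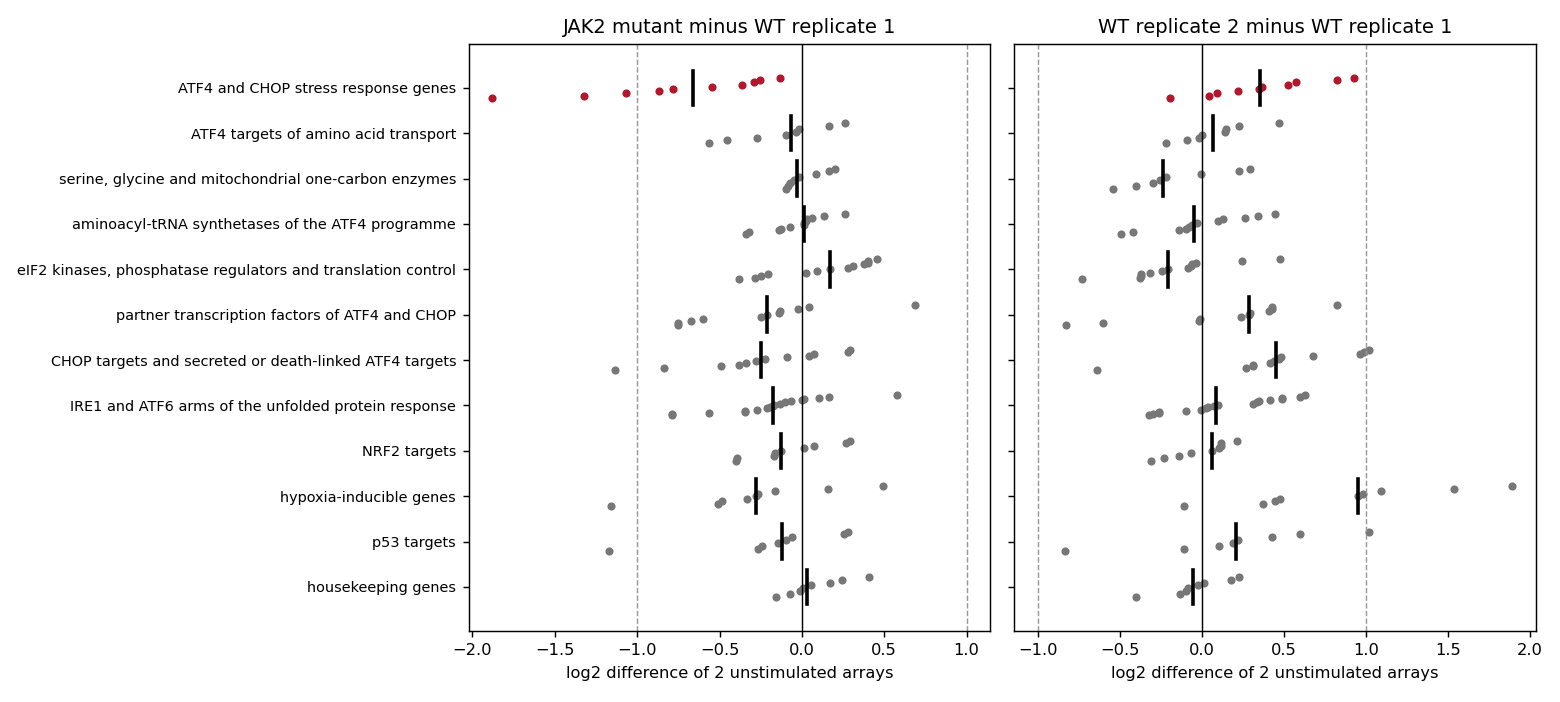
Log2 difference of each gene in the 10 stress genes and 11 other lists (1 point per gene), for the JAK2 mutant minus WT replicate 1 and for WT replicate 2 minus WT replicate 1, with a bar at each list's median and dashed lines at 2-fold. In the JAK2 mutant the 10 stress genes have a median of -0.66, and the lists of transport, serine enzymes and synthetases lie around 0 at -0.07, -0.03 and 0.01.

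The genes whose centred profile over the 8 arrays was most like the mean of the 10, by root mean square distance, were SGPP1 (0.035), CSRNP1 (0.035), CEBPB (0.056), HLA-B (0.063), NOP53 (0.090) and C1orf54 (0.096). The 10 genes themselves ran from 0.086 for DDIT4 to 0.66 for DDIT3, so the mean profile is close to the profiles of some and far from that of DDIT3.

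The cytokines moved these genes little. None of the 10 passed 2-fold in any of the 4 responses. For IFN-gamma in the JAK2 mutant the median was -0.03, against 0 called genes of 11529, which is 0% of all genes, and in WT it was 0.07, against 0.607% of all genes called. SLC7A11 was the largest in WT at 0.49, then DDIT4 at 0.21, and SESN2 the largest in the JAK2 mutant at -0.27. For TNF-alpha in the TNFRSF1A mutant the median was 0.01, against 0% of all genes called, and in WT -0.01, against 0.321% of all genes. SLC7A11 was again the largest in WT at 0.31 and TRIB3 next at 0.18, while in the TNFRSF1A mutant CHAC1 was at 0.22 near its background. The differences of DDIT3 and TRIB3 between the JAK2 mutant and WT were thus larger than any response of the 10 genes to a cytokine.

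**Figure D5:**
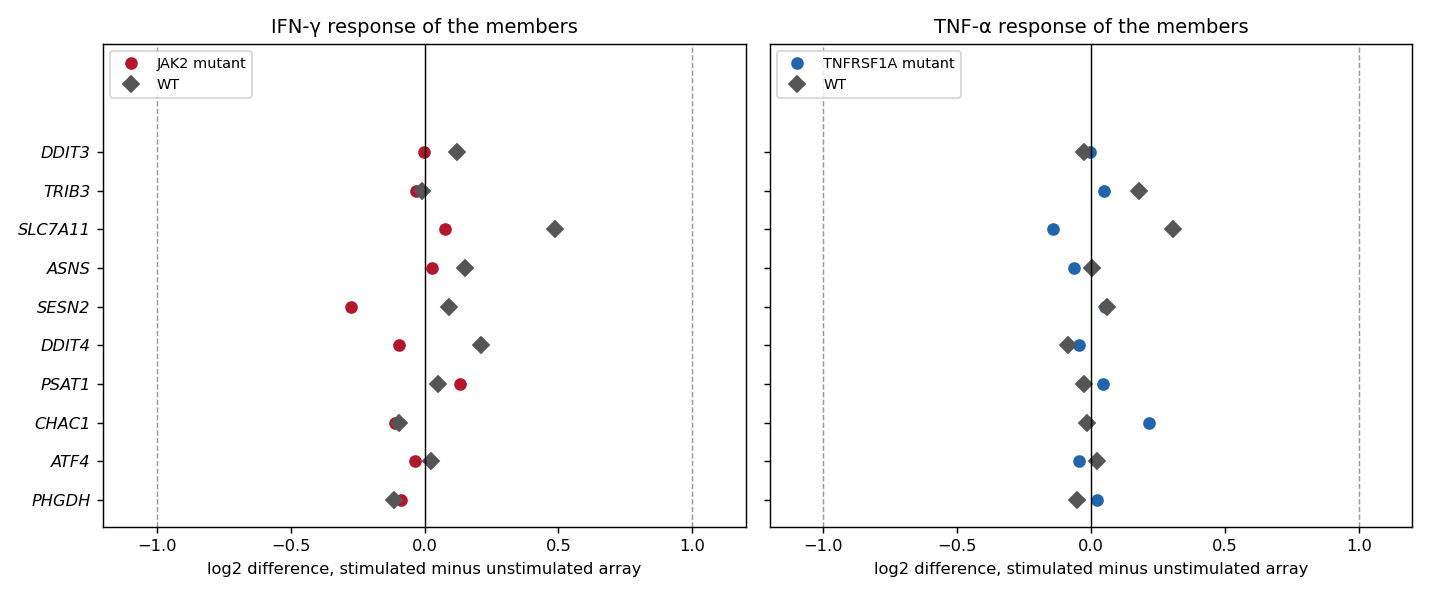
Log2 response of the 10 genes to IFN-gamma in the JAK2 mutant and WT and to TNF-alpha in the TNFRSF1A mutant and WT, each stimulated array minus its own unstimulated array, with dashed lines at 2-fold. All points lie between -0.27 and 0.49, inside the 2-fold lines.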

How the data were processed

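Per the submitters' processing notes, RMA and Affymetrix Expression Console 1.1 produced the deposited table, which holds 1 normalized intensity (linear scale) per probe set and array. RMA sets equal distributions on all arrays, so a shift of most genes one way would be lost, and it compresses dim differences. The return to a linear scale was inferred from the values; log2 values had been assumed in the plan, so log2 was taken first. Of 49395 probe sets, 44994 named 1 gene in the platform annotation, 1832 several and 2569 none or were not listed; 44967 symbols were looked up by gene ID in RefSeq GRCh38.p14. The brightest single-gene probe set stood for a gene, and 11529 of 18132 genes with a highest log2 value of at least 6 were compared. A difference of 2-fold was called. The upper quartile of 23 background probe sets gave each array's background range, 5.76 to 6.04 log2. limma 3.58.1 in R 4.3.3 was an alternative. It was tried on simulated falls larger than any of the 10 members showed, so that trial does not show its power for them. The members and lists were chosen with earlier results of these data known. The genes named are all 10 members, the list genes called or else the 2 of largest size, and the 6 of nearest profile; others are said to be chosen after values were seen.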

Additional observations from a re-analysis of the deposited data

Results flagged for a closer look

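The TNF-alpha response of SLC7A11 with its brightest probe set was -0.14 in the TNFRSF1A mutant and 0.31 in WT. These have opposite signs and a difference of -0.45 on the log2 scale. The dimmest probe set gave -0.02 in the mutant and 0.44 in WT, and the remaining one gave 0.09 and 0.11, with the same sign. Each response is 1 pair of arrays, so the difference between them was not tested. Both responses of the brightest probe set lie within the SD of 0.38 over genes between the WT arrays.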

How the results depend on the processing

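No alternative reversed a called direction, and the median IFN-gamma response of WT, with no gene called, ran from -0.28 to 0.11. Of 71 alternative medians 69 moved by less than the WT spread, and of 189 counts 177 stayed within 1.5 times. These totals include settings that could not move a value, such as dropping the level filter, which all 10 genes passed. A count of 0 that stayed at 0 was included as unmoved. Of 134 values of single genes 128 moved by less than the spread. The median of the JAK2 mutant minus WT replicate 1 difference was -1.10 without replicate 1, and the TNF-alpha response of WT had a median of 0.40 without replicate 2. Of the 10 genes, those that fell in the JAK2 mutant against WT replicate 1 numbered 5 at 1.5-fold (4.29% of all genes), 1 at 3-fold (0.841%), 1 with the mean of all probe sets (1.41%), 6 without WT replicate 1 (3.65%) and 0 in limma at an adjusted p of 0.05 (0.165%, with 6 at an unadjusted p under 0.05). In the IFN-gamma pair they numbered 1 at 3-fold (1.22%) and 0 in limma (0.182%, with 4 unadjusted). In the TNFRSF1A mutant against WT replicate 2, 1 gene was higher at 1.5-fold (2.3%) and 1 without replicate 2 (0.841%). In the WT pair 2 were higher at 1.5-fold (4.49%) and 1 with the mean of probe sets (0.678%), and in the TNF-alpha pair 1 was lower at 1.5-fold (2.24%). Against WT replicate 2, DDIT3, SLC7A11, ASNS and DDIT4 were at -2.80, -1.64, -1.69 and -1.07 in the JAK2 mutant. The causes were not tested beyond the construction of each setting. No paired analysis was possible because the conditions share fewer than 2 replicate numbers. Arrays without replicates and equalised distributions limit all values, and dim genes such as CHAC1 are limited by background.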
